A study of Rattus norvegicus with 32 samples.

Results

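Skeletal muscle fiber type genes were examined in the mammary gland of the rat. The members are 10 genes of the contractile apparatus, namely Acta1, Actn3, Myh1, Myh2, Myh4, Tnni2, Tnnt3, Mybpc1, Myh7 and Tnni1. They were selected on their measured intensities: Acta1 and genes that vary widely with it between arrays were grouped with their fiber type counterparts, above a median intensity threshold. All probe sets that the platform annotation pairs with 1 of these symbols alone were taken, 17 in all, and 14 of them had a median intensity of 10 or more. These 14 stand for all 10 genes, of 11797 genes with such a probe set. A further 3 probe sets are paired with a member and another symbol and were not counted as members.

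The study followed untreated nonparous Sprague Dawley rats through the 4-day estrous cycle on Rat 230 2.0 arrays, with 1 rat per array. Of 32 arrays, 31 were used, in groups of 8 rats on day 1 (7 to 17.6 h), 8 on day 2 (31.6 to 43 h), 8 on day 3 (57 to 67.1 h) and 7 on day 4 (79.3 to 88.1 h). Hours count from the first midnight of the cycle, all rats were sampled in the daytime, and each time point was sampled once. The array of 40 h was left out. The study's methods also discarded it, since its data looked corrupted. GEO's labels name the fourth mammary glands stored in RNAlater, whereas the methods name frozen left glands of chains 4 to 6, and both state that lymph nodes were removed. Values are GC-RMA intensities, a background-corrected brightness that can be set between arrays for 1 probe set but not between probe sets. Array medians ran between 49.9 and 54.7. The number of arrays limits the precision, and because each time point had 1 rat, a change with time and a difference between rats cannot be told apart at a single time point.

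A skeletal muscle fiber shortens when myosin heavy chains, gathered in thick filaments, pull on actin filaments, and troponin on the actin filament holds this back until calcium arrives. Mammals make several versions of most of these proteins. Fast fibers use one set and slow fibers another, and the myosin heavy chain is the usual label of a fiber: Myh7 for slow type I, Myh2 for type IIa, Myh1 for type IIx and Myh4 for type IIb. Acta1, skeletal alpha actin, is made in fast and slow fibers alike. The mammary gland itself is made of epithelium, contractile myoepithelial cells, fat and connective tissue, and its myoepithelial cells use smooth muscle proteins instead. In bulk tissue such as this, fewer cells of a type and less RNA per cell cannot be told apart.

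The fast adult myosin heavy chain genes lie side by side on chromosome 10, in the order Myh2, Myh1, Myh4, with Myh3 before them and Myh8 after them in the RefSeq gene table. Their promoters are printed with that of Acta1 because Myh1 stood apart from its neighbours in its values. Of the members, 9 have an entry in RefSeq's promoter windows on build GRCr8, each of 300 bases with 250 before the start and 50 after it. Capitals mark letters that match a TATA box (TATAAA), an MCAT motif (CATTCC), a MEF2 motif or a CArG box, searched on both strands.
Acta1, GRCr8 chr19:68784145-68784444, minus strand: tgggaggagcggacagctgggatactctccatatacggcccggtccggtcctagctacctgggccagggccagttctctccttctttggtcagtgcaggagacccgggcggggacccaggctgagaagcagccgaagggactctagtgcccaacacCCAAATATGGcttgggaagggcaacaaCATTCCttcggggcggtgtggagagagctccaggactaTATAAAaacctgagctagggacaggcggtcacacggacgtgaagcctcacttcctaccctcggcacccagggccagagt
Myh2, GRCr8 chr10:52355489-52355788, plus strand: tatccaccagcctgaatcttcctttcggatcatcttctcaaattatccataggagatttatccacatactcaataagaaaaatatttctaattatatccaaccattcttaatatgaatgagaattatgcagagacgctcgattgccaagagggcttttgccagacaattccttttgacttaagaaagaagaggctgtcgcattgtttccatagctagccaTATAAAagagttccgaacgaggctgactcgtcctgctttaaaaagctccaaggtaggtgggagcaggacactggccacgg
Myh1, GRCr8 chr10:52384662-52384961, plus strand: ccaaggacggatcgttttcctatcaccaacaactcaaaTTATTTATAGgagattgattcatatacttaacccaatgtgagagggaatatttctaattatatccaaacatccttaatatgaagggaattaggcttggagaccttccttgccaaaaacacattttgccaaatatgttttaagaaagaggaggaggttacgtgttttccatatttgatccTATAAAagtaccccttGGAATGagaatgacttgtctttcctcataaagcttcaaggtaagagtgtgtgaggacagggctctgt
Myh4, GRCr8 chr10:52421898-52422197, plus strand: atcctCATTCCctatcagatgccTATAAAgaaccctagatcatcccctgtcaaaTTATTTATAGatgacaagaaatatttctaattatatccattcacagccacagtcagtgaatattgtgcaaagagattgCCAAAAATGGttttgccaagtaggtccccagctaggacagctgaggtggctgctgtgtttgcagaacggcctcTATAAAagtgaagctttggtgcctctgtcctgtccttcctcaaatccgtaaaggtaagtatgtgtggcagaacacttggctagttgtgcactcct

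The Acta1 window holds a CArG box, the motif bound by serum response factor, at 94 bases before the start, an MCAT motif at 67 bases before it and a TATA box at 29 bases before it. The Myh4 window holds a CArG box at 118 bases before the start and a MEF2 motif at 196 bases before it. The Myh1 window holds a MEF2 motif of the same letters, TTATTTATAG, at 212 bases before the start, and no CArG box. In Myh1 and Myh4 a TATA box on the other strand lies inside that MEF2 match. The Myh2 window holds a TATA box alone of these 4 motifs. Among all 33469 windows, 14.2% hold a TATA box, 14.2% an MCAT motif, 3.29% a MEF2 motif and 1.64% a CArG box. An E-box (CANNTG), searched as well and not capitalised, is in 72.1% of all windows. None of the 4 capitalised motifs was found in the windows of Actn3, Myh7 and Tnni1. These matches describe letters only.

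Acta1, the actin of all skeletal muscle fibers, differed between rats far more than the typical gene of the gland did. Its probe set (1369928_at) had a lowest intensity of 40.8 at 10 h, a median of 5086 and a highest of 15148 at 79.3 h, a range of 8.53 on the log2 scale. Over all 22943 probe sets past the filter the median range was 1.02. Low values were scattered over the cycle: Acta1 was 40.8 in the rat of 10 h and 264 in that of 17.6 h on day 1, 252 (31.6 h) and 436 (41.6 h) on day 2, and 191 (82.5 h) and 220 (83.9 h) on day 4. Arrays taken close in time could differ widely, as at 31.6 h and 32.8 h, with 252 and 13094.

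**Figure D1:**
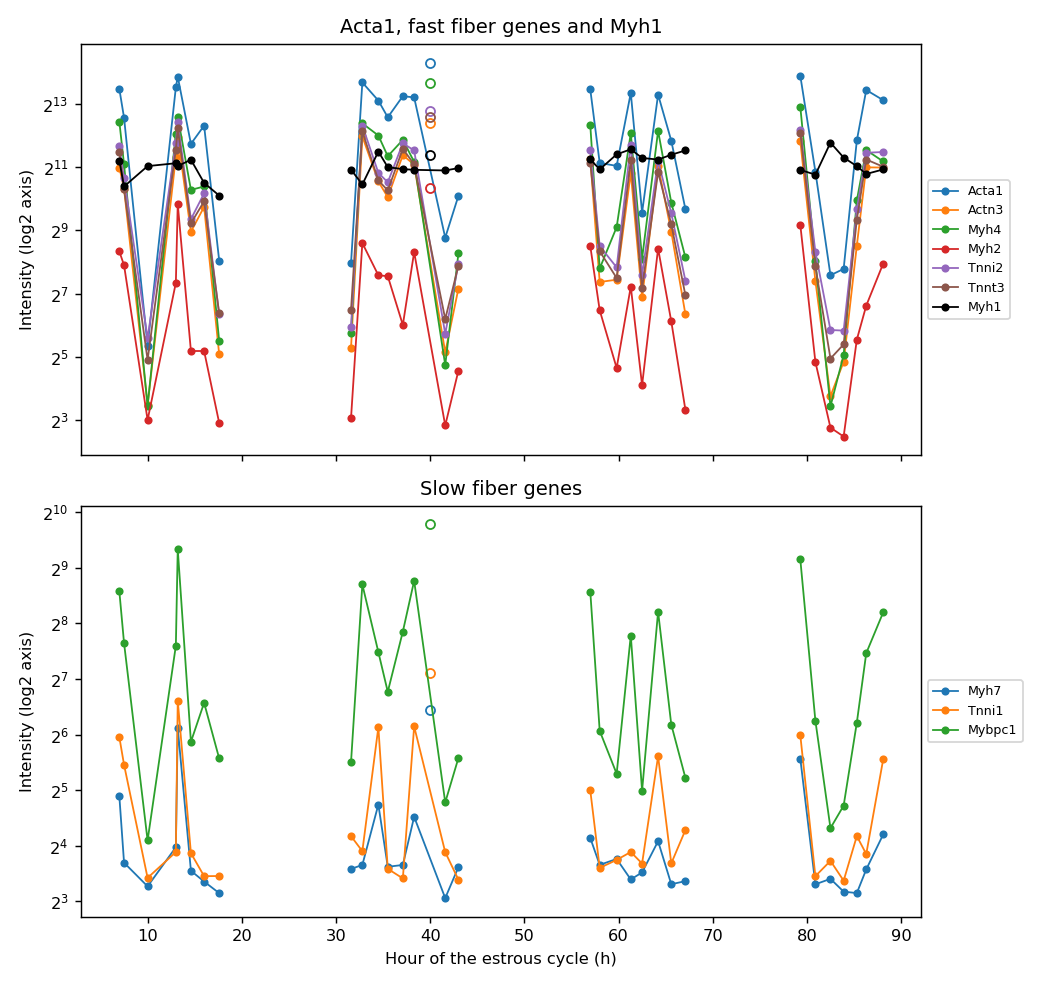
Intensity (log2 axis) of Acta1, the fast fiber genes and Myh1 (upper panel) and of the slow fiber genes (lower panel) against the hour of the estrous cycle, 1 point per rat, joined within a day; open circles are the 40 h array, which was not used. Acta1 ran between 40.8 and 15148, whereas Myh1 stayed between 1098 and 3500.

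The fast fiber genes other than Myh1 had ranges of a similar order. Myh4, the fastest of the myosin heavy chains, had a lowest intensity of 10.8 at 82.5 h, a median of 1339 and a highest of 7673 at 79.3 h, a range of 9.47 on the log2 scale. Actn3, the alpha-actinin that anchors actin at the Z disc of fast fibers, had a lowest of 11.1, a median of 857 and a highest of 4014, a range of 8.49. Myh2, the myosin of type IIa fibers, had a lowest of 5.57, a median of 69.6 and a highest of 914, a range of 7.36. The fast troponins moved on the same scale. Tnnt3, the fast troponin T that ties the troponin complex to tropomyosin, had a lowest of 29.9, a median of 968 and a highest of 4786, a range of 7.32. Tnni2, the fast inhibitory troponin, had a lowest of 48.0, a median of 1153 and a highest of 5509, a range of 6.84. Actn3, Tnnt3 and Tnni2, like Acta1, had their lowest or near-lowest values at 10 h and their highest in rats of 13.2 h, 32.8 h or 79.3 h.

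The slow fiber genes had narrower ranges between rats. Mybpc1, the slow myosin binding protein C of the thick filament, had a lowest intensity of 17.1 at 10 h, a median of 95.1 and a highest of 646 at 13.2 h, a range of 5.24. Tnni1, the slow inhibitory troponin, had a lowest of 10.4, a median of 14.8 and a highest of 97.8 at 13.2 h, a range of 3.24. Myh7, the slow myosin heavy chain, had a lowest of 8.34, a median of 12.3 and a highest of 69.7 at 13.2 h, a range of 3.06. The lowest values of Tnni1 and Myh7 lie near the floor of the scale, and so do those of Myh2 (under 10 on 6 arrays), Myh4 and Actn3, so the ranges of all 5 genes are limited from below. Myh7 at a median of 12.3 and Tnni1 at 14.8 were the probe sets just inside the threshold of 10. Just outside it were a second Tnni1 probe set (1371339_at, median 9.14), a second Myh7 probe set (1386993_at, median 8.69) and a second Tnnt3 probe set (1397499_at, median 8.52). The highest array of the first reached 127, of the second 279 and of the third 19.5. Their ranges were 4.41 for Tnni1, 5.41 for Myh7 and 1.68 for Tnnt3. For Tnni1 and Myh7 this is wider than on the probe set past the filter, and for Tnnt3 narrower.

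Myh1, the myosin of type IIx fibers, did not share this spread. Its 5 probe sets had ranges between 1.27 and 1.68 on the log2 scale, and the brightest of them (1377720_x_at) had a lowest intensity of 1098 at 17.6 h, a median of 2091 and a highest of 3500 at 82.5 h. That highest value came from a rat in which Acta1 was 191 and Myh4 10.8. At 10 h, where Acta1 had its lowest value of 40.8, the same Myh1 probe set read 2094, and at 79.3 h, where Acta1 had its highest of 15148, it read 1927. The Myh1 probe sets therefore went against their label as markers of skeletal muscle in these arrays, and are described here by their annotation. Of the 14 member probe sets, 7 had a range over 5 on the log2 scale, a value passed by 136 of all 22943 probe sets, or 0.593%. This is a description, since the members were chosen for their spread.

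**Figure D2:**
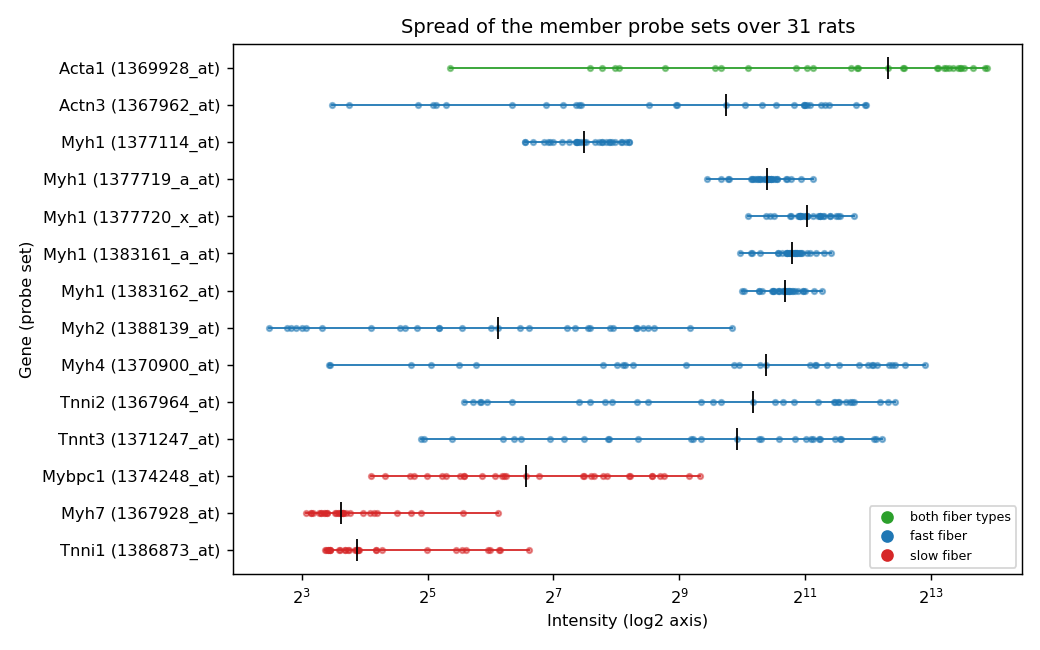
Intensity (log2 axis) of the 14 member probe sets, 1 point per rat and 31 rats per row, with the median as a black tick; colours mark genes of both fiber types, of fast and of slow fibers. The 5 Myh1 rows are narrow, with ranges of at most 1.68 on the log2 scale, against 9.47 for Myh4.

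Across the 31 rats Acta1 and the fast members other than Myh1 moved together. Pearson's r with Acta1 on the log2 scale was 0.98 for Actn3 and Myh4, 0.97 for Tnnt3 and Tnni2 and 0.91 for Myh2, and all 15 pairs among these 6 genes lay between 0.91 and 0.99. Spearman's rho with Acta1 was 0.97 for Actn3 and Myh4. Without the rats of 10 h and 82.5 h, the 2 farthest from the median of Acta1, r was 0.98 for both. The correlations describe 31 rats whose values share an array each, and are the property for which the members were brought together.

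The members differed in how steeply they followed Acta1. The least squares slope on log2 Acta1 was 1.22 ± 0.05 for Myh4 (SE, n = 31) and 1.12 ± 0.04 for Actn3. The SD over the rats was 2.90 for Myh4 and 2.66 for Actn3 on the log2 scale, against 2.32 for Acta1. The range of Actn3 (8.49) was not wider than that of Acta1 (8.53). The slope was 0.97 for Tnnt3 and Tnni2 and 0.87 ± 0.07 for Myh2. Among the slow members it was 0.60 ± 0.05 for Mybpc1, 0.24 ± 0.07 for Tnni1 and 0.17 ± 0.05 for Myh7. On the second probe sets, which the filter left out, the slope was 0.34 ± 0.09 for Tnni1 and 0.41 ± 0.11 for Myh7. For Myh1 it was -0.01 ± 0.03. The floor of the scale bears on the slopes of Tnni1, Myh7, Myh2, Myh4 and Actn3 as on their ranges.

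**Figure D3:**
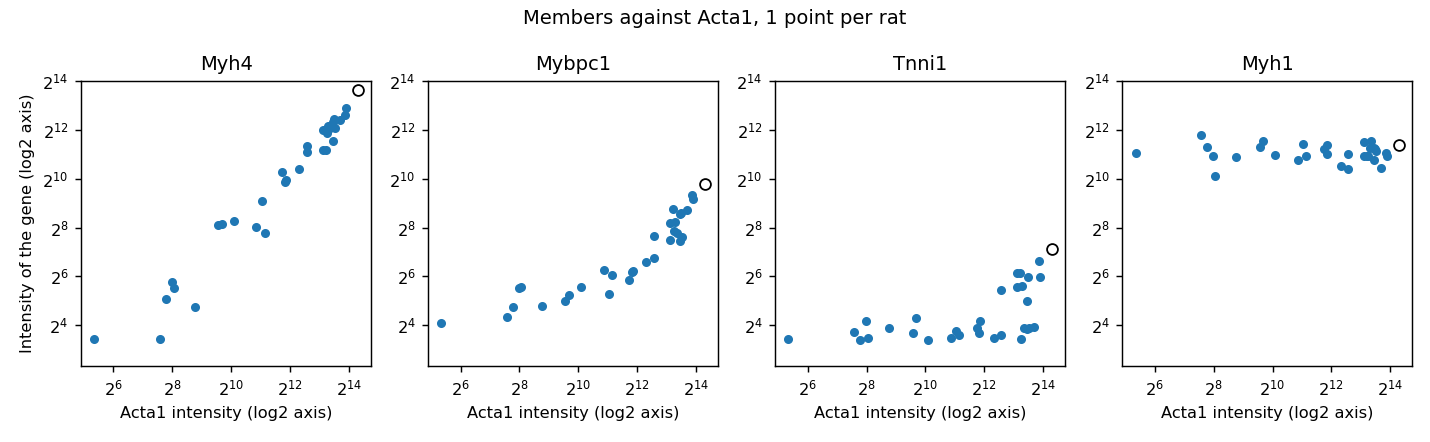
Intensity of Myh4, Mybpc1, Tnni1 and Myh1 against that of Acta1 (both axes log2), 1 point per rat; the open circle is the 40 h array, which was not used. Myh4 follows Acta1 with an r of 0.98, Tnni1 stays near 15 in most rats and is higher in some of those with high Acta1, and Myh1 is flat with an r of -0.07.

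Among the slow members, Mybpc1 resembled the fast genes. Its r was 0.90 with Acta1, 0.94 with Actn3 and 0.95 with Myh2, against 0.71 with Tnni1 and 0.73 with Myh7. Mybpc1 is called a slow isoform by name and is also made in fast fibers. Tnni1 and Myh7 went with each other, with an r of 0.85, more closely than with Acta1, where r was 0.54 for Tnni1 and 0.57 for Myh7. Spearman's rho with Acta1 was 0.59 for Tnni1 and 0.71 for Myh7. Leaving out the rats of 10 h and 82.5 h gave an r of 0.53 for Tnni1 and 0.58 for Myh7. The Tnni1 values fell in 2 separate ranges and the coefficients span both. Myh2 stood between the groups, with an r of 0.71 with Tnni1, against 0.55 for Myh4.

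Tnni1 was at or below 19.5 in 22 rats and at or above 31.9 in the other 9. Those 9 rats were of 7, 7.5, 13.2, 34.5, 38.3, 57, 64.2, 79.3 and 88.1 h and came from all 4 days. Their Acta1 was 6046 or more, yet a high Acta1 did not always come with a high Tnni1. At 13.2 h Acta1 was 14870, Tnni1 97.8 and Myh7 69.7, whereas at 32.8 h Acta1 was 13094, Tnni1 14.97 and Myh7 12.6. Some fast genes were close in these 2 rats, with Actn3 at 3983 at 13.2 h and 4014 at 32.8 h, and Tnni2 at 5509 at 13.2 h and 5099 at 32.8 h. Myh2 was not, at 914 at 13.2 h and 387 at 32.8 h. Neighbouring rats on day 2 also differed in Tnni1 at a similar Acta1. At 37.1 h Acta1 was 9708 and Tnni1 10.7, whereas at 38.3 h Acta1 was 9438 and Tnni1 70.9. The fast myosins were not alike in this pair and moved apart, with Myh2 at 64.4 at 37.1 h and 318 at 38.3 h, and Myh4 at 3723 at 37.1 h and 2297 at 38.3 h. On the second probe sets, which the filter left out, Tnni1 read 6.41 at 37.1 h and 100.3 at 38.3 h, and Myh7 read 7.11 at 37.1 h and 144 at 38.3 h.

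Of a list of 8 further slow isoforms, 7 had a probe set past the filter, and 4 of them (Tnnc1, Tnnt1, Myl2 and Myl3) were high in largely the same rats as Tnni1. Tnnc1, the slow troponin C, read 352 (13.2 h) and 166 (38.3 h) in rats with high Tnni1, and 16.2 (32.8 h) and 15.1 (37.1 h) in rats with low Tnni1. Myl2, a slow regulatory light chain, read 243 and 122 in the first pair of rats, and 9.30 and 8.45 in the second pair. Tnnt1, the slow troponin T, and Myl3, a slow essential light chain, were likewise higher in the first pair than in the second. Tnnt1 also read 32.1 at 86.3 h and 27.4 at 80.9 h, in rats with low Tnni1. That was above its 25.8 at 57 h, in a rat with high Tnni1. The genes most like Tnni1 over the 31 rats, named after their values were seen, were Myl2, with an r of 0.96, Tnnc1 (0.95), Myl3 (0.93) and Tnnt1 (0.93). Mss51, which is not on the list, came next with an r of 0.82 and a range of 1.45. Their r with Acta1 was 0.54 to 0.62. The other 3 slow isoforms past the filter did not share the pattern on their brightest probe set. Casq2, a calsequestrin of slow and cardiac muscle, read 20.9 at 13.2 h and 32.1 at 32.8 h, with an r with Tnni1 of 0.48. Atp2a2, the slow calcium pump, which most cells make, and Tpm3, a slow tropomyosin, ranged over only 0.60 and 0.84 on the log2 scale, and Myoz2 did not pass the filter. Atp2a2 has 5 probe sets and Tpm3 has 12, and the others were not read here.

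**Figure D4:**
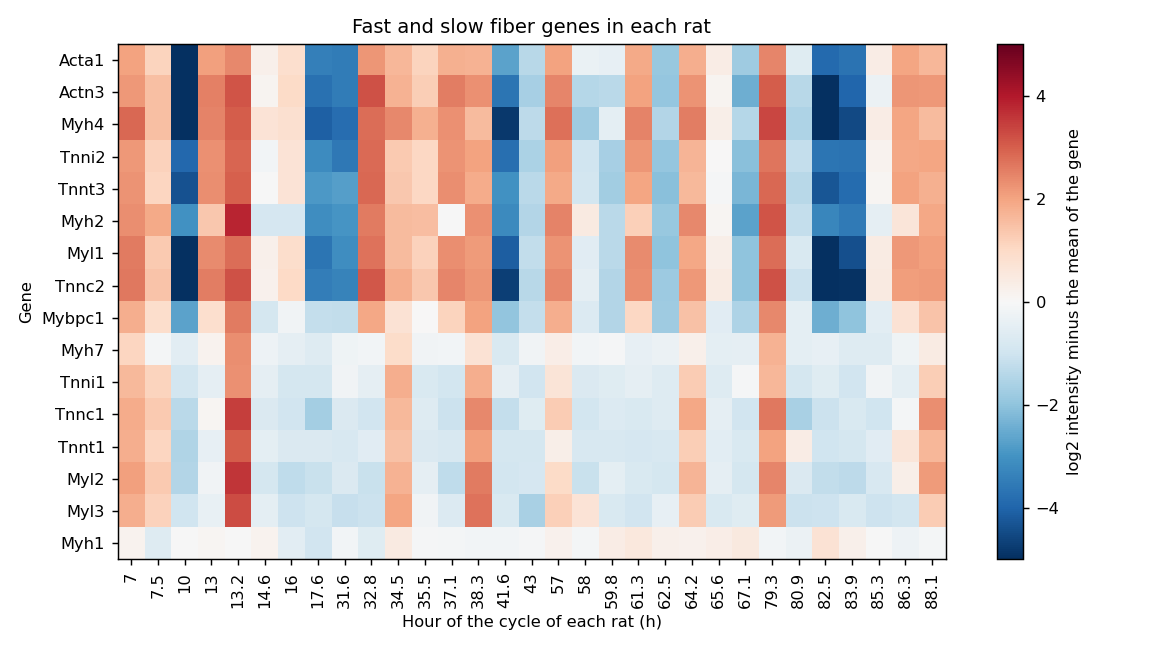
Log2 intensity minus the mean of the gene over 31 rats (colour), for Acta1 and fast genes (upper rows), slow genes (Mybpc1 to Myl3) and Myh1 (bottom row), 1 column per rat in order of the cycle hour. At 32.8 h and 37.1 h Acta1 is high and Tnni1 low (14.97 and 10.7), whereas at 13.2 h and 38.3 h both are high.

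A fast minus slow difference was taken for each rat from the mean centred log2 values of the 6 fast and the 3 slow members. It ran between -2.46 at 82.5 h and 1.82 at 32.8 h. By day it averaged -0.04 ± 1.43 on day 1, 0.06 ± 1.57 on day 2, 0.24 ± 0.95 on day 3 (SD, n = 8 each) and -0.30 ± 1.44 on day 4 (SD, n = 7). These means differed by less than the SD within a day. The difference was lowest where Acta1 was lowest. Its 6 lowest values belonged to the rats of 10 h, 17.6 h, 31.6 h, 41.6 h, 82.5 h and 83.9 h, which also had the lowest Acta1. Tnni1 and Myh7 lie near the floor in these rats and can fall little further with the fast genes. At the high end the difference did not follow Acta1. It was 0.55 at 79.3 h and 0.26 at 13.2 h, the rats of highest Acta1.

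Further genes outside the members tracked Acta1. The 10 most like it were Myl1 and Myl11, fast myosin light chains, Tnnc2, the fast troponin C, Ckm, the muscle creatine kinase, Tpm1 and Tpm2, tropomyosins, Atp2a1, the fast calcium pump, Ttn, the giant spring protein titin, Pgam2, a muscle glycolytic enzyme, and Sh3bgr. Their r with Acta1 ran between 0.96 and 0.99. Myl1 had a lowest intensity of 26.7, a median of 2582 and a highest of 9891, and Ckm of 4.64, 1552 and 7491. All 8 genes of a list of further fast isoforms passed the filter, with r between 0.93 and 0.99. Of 18 further sarcomere and Z disc genes, 17 passed the filter and 9 had an r over 0.8. The brightest Tpm2 probe set had the lowest r of the 17, at -0.0037, and differs from the Tpm2 probe set named among the 10. The brightest Tpm1 probe set also differs from the Tpm1 probe set named among the 10. It had an r of 0.78 and a range of 1.66 on the log2 scale, against 0.98 and 7.40 for the other. Of 16 muscle energy and calcium genes, 14 passed the filter and 11 had an r over 0.8. Fabp3, a fatty acid carrier, spread over 6.85 on the log2 scale with an r of -0.05.

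Myh1 had other company. The 5 genes most like its brightest probe set were Tmem14a, with an r of 0.86, Dbt (0.84), Rab40b (0.84), Lum (0.83) and Sgcb (0.82). Their r with Acta1 lay between -0.16 and 0.14. Lum encodes lumican, a proteoglycan of connective tissue, and Dbt a mitochondrial enzyme of branched-chain amino acid breakdown. Sgcb encodes beta-sarcoglycan, a membrane protein of muscle fibers among other cells. None of the 5 is on the lists of fast fiber genes used here, and the cells they come from were not tested. Among the 5 Myh1 probe sets, 4 went together with r between 0.87 and 0.97, and the dimmest (1377114_at, lowest 93.2, median 180 and highest 296) had an r of 0.08 to 0.39 with them. The r of the 5 with Acta1 lay between -0.18 and -0.05.

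One more probe set names Myh1. The set 1370971_at is paired with Myh2, Myh1 and Myh8 together, and so was not counted as a member. It had a lowest intensity of 9.64 at 10 h, a median of 255 and a highest of 1528 at 13.2 h, a range of 7.31 on the log2 scale with an r of 0.95 with Acta1. Of the probe sets that name Myh1, the shared one thus moved like Acta1 and the 5 that name it alone did not. The shared set also names Myh2, whose own probe set had an r of 0.91 with Acta1, so its values cannot be credited to Myh1. Which transcript the 5 probe sets read was not tested, since no probe sequence was used here.

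Markers of other cell types did not move with the muscle genes to the same degree. Of 7 myogenic factors and immature myosins, Myog alone passed the filter, with an r with Acta1 of 0.44, and Myod1, Myf6, Myh3 and Myh8 did not reach a median of 10. Among smooth muscle and myoepithelial markers all 6 passed, with r between -0.10 and 0.16. Among adipocyte markers 6 of 7 passed, with r between -0.03 and 0.19. The 7 luminal markers had r between -0.29 and -0.03, the 4 basal ones between -0.21 and -0.03, and 4 lymphocyte markers between 0.03 and 0.08. The 5 macrophage markers had r between -0.0021 and 0.20, and 3 of 4 endothelial markers between 0.30 and 0.40. Of 5 cardiac markers, Tnnt2 passed with an r of -0.15 and Myh6 with an r of -0.0051, and Nppa and Tnni3 were under the filter. Cox8b, which is listed with brown fat and is also made in muscle, had an r of 0.93, whereas Cidea had an r of 0.01 and Ucp1 did not pass. Pax7, Myf5, Actc1, Retn and Cdh5, which the lists also hold, had no probe set paired with that symbol alone and were not measured here. The part of any of these cell types in the muscle values was not tested.

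The design asks whether genes change over the days of the cycle. The members did not pass the test in any comparison of days. Acta1 had a lowest, median and highest intensity of 40.8, 5566 and 14870 on day 1, 252, 7456 and 13094 on day 2, 757, 2945 and 11254 on day 3, and 191, 3673 and 15148 on day 4, so the 4 days overlapped over nearly their whole ranges. In limma with day and clock hour as terms, the log2 difference from day 1 was 0.26 ± 1.16 on day 2, 0.45 ± 1.17 on day 3 and -0.20 ± 1.20 on day 4 (SE). With errors of this size, a difference between days as large as 1 on the log2 scale was not detectable for Acta1 in these rats.

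Between the 4 days 0 of the 14 member probe sets were called at an adjusted p of 0.05, where 0.501% of all probe sets were. In day 2 minus day 1 it was 0 of 14 with a background of 0.00436%, in day 3 minus day 1 0 of 14 with a background of 0.955%, and in day 4 minus day 1 0 of 14 with a background of 0.0218%. At an unadjusted p under 0.05 there was 1 member of 14 between the 4 days (10.9% of all probe sets), 0 in day 2 (5.82%), 4 in day 3 (13.7%) and 0 in day 4 (6.39%). The 4 of day 3 were Myh1 probe sets. The brightest had a lowest, median and highest intensity of 1948, 2595 and 3028 on day 3, against 1098, 2095 and 2408 on day 1, and the groups overlapped. Its difference was 0.50 ± 0.16 on the log2 scale (SE), with a limma adjusted p of 0.144. The median difference over the 14 member probe sets was 0.24 in day 3 minus day 1, against -0.0047 over all probe sets. Myh1 counts 5 times in it, with differences of 0.29 to 0.50. Acta1, Myh4 and Myh2 were also higher on day 3, whereas Actn3, Tnni2, Tnnt3, Mybpc1, Tnni1 and Myh7 were lower. The sign of this median therefore leaned on Myh1, and it rested on single rats as well. Leaving out the 10 h rat gave -0.38, leaving out 17.6 h gave -0.22, leaving out 64.2 h gave -0.04 and leaving out 57 h gave 0.03.

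Along the clock hour the members had no call either. The slope over 10 h within a day was -0.88 ± 1.21 on the log2 scale for Acta1, -1.97 ± 1.11 for Myh2, -1.12 ± 0.78 for Mybpc1 and -0.04 ± 0.17 for the brightest Myh1 probe set (SE). Of the members 0 of 14 passed, where 1.76% of all probe sets did, and 0 had an unadjusted p under 0.05, where 12.1% of all probe sets did. The smallest limma adjusted p of a member was 0.424, for the dimmest Myh1 probe set. A term for a different hour slope on each day gave no member call, with adjusted p of 0.9999 or more in limma.

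**Figure D5:**
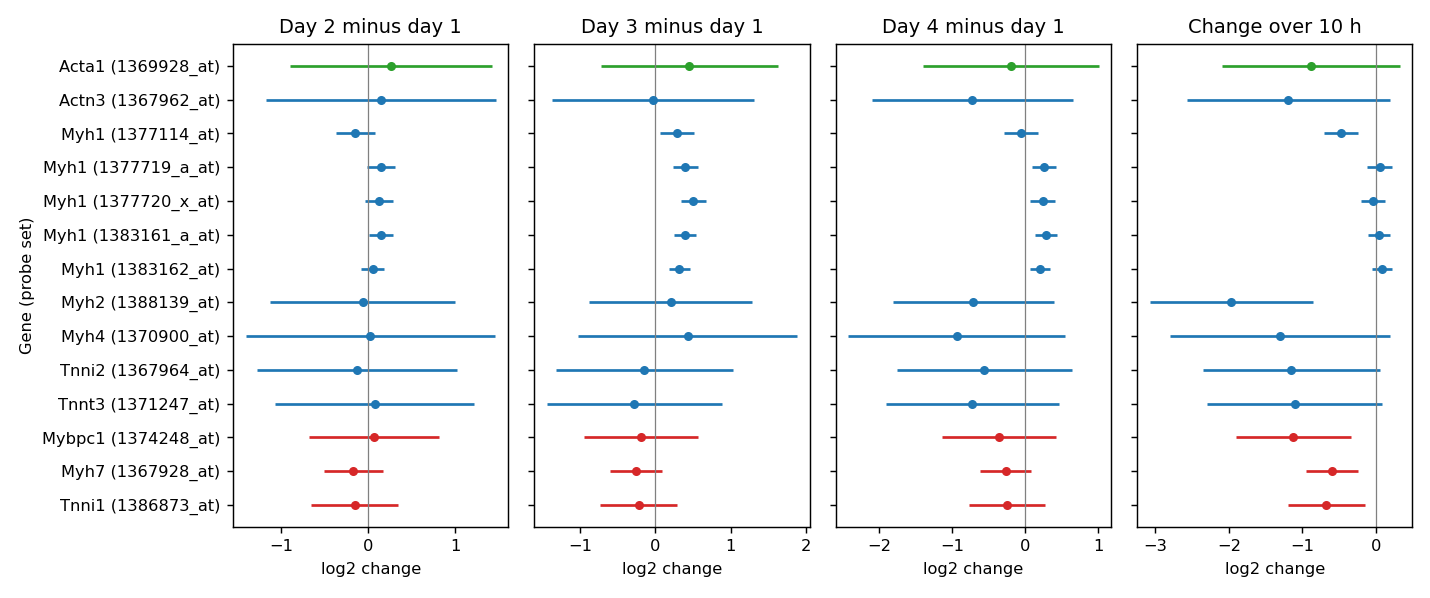
Log2 differences of days 2, 3 and 4 from day 1 and the change over 10 h of the clock, with SE bars, for the 14 member probe sets (limma, 31 rats; blue fast, red slow, green both fiber types). Acta1 and Myh4 have SEs over 1, whereas the brightest Myh1 probe set has an SE of 0.16 in day 3 minus day 1.

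The spline method of the study's methods asks whether a smooth curve over the cycle accounts for a gene's variance, and gives the share of variance fitted. That share was 0.04 for Acta1, 0.06 for Actn3 and Tnni2, 0.07 for Myh4 and Tnnt3, 0.09 for Mybpc1, 0.13 for Myh2 and Myh7, 0.14 for Tnni1 and 0.26 to 0.33 for the 5 Myh1 probe sets. At a false discovery rate of 0.25, 0 of 14 members were called, where 8.04% of all probe sets were. The median share was 0.13 over the members and 0.25 over all probe sets, and the lowest share called was 0.46. Acta1, with a range of 8.53, had the smallest share of the 14 probe sets, and the brightest Myh1 probe set, with a range of 1.67, had the largest.

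Of the lists of further muscle genes, 0 of 8 fast isoforms, 0 of 7 slow isoforms and 0 of 14 energy and calcium genes were called in limma in any of the 5 comparisons. The share of all probe sets called in these comparisons ran between 0.00436% and 1.76%. Of 17 sarcomere and Z disc genes, 1 was called, the brightest probe set of Tpm2, a tropomyosin that smooth muscle also makes, which was 0.81 ± 0.14 higher on the log2 scale in day 3 than in day 1 (SE, limma adjusted p = 0.00330), was called between the 4 days as well, and did not follow Acta1. Among smooth muscle and myoepithelial markers, 4 of 6 rose (Cnn1, Tagln, Myh11 and Mylk) and 1 fell (Oxtr) in day 3 relative to day 1. The skeletal members had 0 calls in this comparison, in which 0.955% of all probe sets were called. The SE was 1.17 for Acta1, 1.45 for Myh4 and 0.16 for the brightest Myh1 probe set, against 0.18 for Cnn1 and 0.13 for Tagln. A change as large as that of Cnn1 (0.97) was therefore not detectable in Acta1 or Myh4. No test of the difference between the lists was made.

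At 40 h, the array left out, 9 of the 14 member probe sets read higher than on any of the 31 arrays. The share of all probe sets that did so was not counted, so this is not read as particular to the members. Many of the 9 also move together, so they are not separate events. Acta1 was 20217, against a highest of 15148 on the other arrays, Myh4 was 12814, against 7673, and Tnni1 was 138, against 97.8. The 5 Myh1 probe sets lay within the range of the others, the brightest at 2666. Since the study set this array aside as corrupted, its values are not read as levels in a rat.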

How the data were processed

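RNA of the mammary gland of 1 rat per time point was hybridised to Affymetrix Rat 230 2.0 arrays. Per the labels and the study's methods, the authors computed the deposited intensity values with GC-RMA in GeneSpring, pooling no rats, on a linear scale. The 57 control probe sets were left out, leaving 31042, of which 20832 have 1 gene symbol in the platform annotation, 436 several and 9780 none here. Values were taken to log2. Probe sets with a median of 10 or more over 31 arrays (22943) were tested, since a minimum of 10 on every array, as in the methods, removes genes that are low in some rats. The probe set of highest median stood for a gene.

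Days (8, 8, 8 and 7 rats) were compared with limma 3.58.1 in R 4.3.3, with day and clock hour (centred at 12.5 h) as terms and Benjamini-Hochberg adjusted p under 0.05 over all probe sets tested. The spline method of the study's methods was rebuilt with an order 2 spline of 8 basis functions and a false discovery rate of 0.25. Both were tested on simulated data. Ranges, slopes on Acta1 and correlations (Python 3.11.15, numpy 2.4.6) are descriptions without a test. Nothing in the sources used here names a batch, so none was fitted. The limma p-values rest on the spread of rats around the day and clock hour terms. That spread also holds any change with time that a straight line within a day does not follow. The spline p-values come from a permuted order of the arrays, pooled over all probe sets tested. Named genes were all member probe sets, the 10 genes most correlated with Acta1, the 5 most correlated with Myh1, and lists of muscle and cell type genes by counts. The 5 most correlated with Tnni1 were added after the values were seen. The members and lists were chosen with earlier results of these data known. Promoter windows come from RefSeq, build GRCr8. Alternatives were other filters, quantile normalization, array weights, all 32 arrays, other terms and leaving out each rat.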

Additional observations from a re-analysis of the deposited data

Results flagged for a closer look

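A rat far from the others of its day was looked for in 56 combinations of a member probe set and a day with Dixon's criterion, which chance alone meets in about 1 of 20 groups, and 2 were found. Both were Myh1 at 82.5 h on day 4. The probe set 1377719_a_at read 2232 there, against 1507 in the next highest of the 7 rats, and 1383161_a_at read 2741, against 1991. Acta1 was 191 and Myh4 10.8 in the same rat. These probe sets correlate with each other, so the 2 are not separate events.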

How the results depend on the processing

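The count of members called was 0 in every limma comparison under every alternative run (a minimum of 10 on every array, no filter, all 32 arrays, quantile normalization, array weights, a trended and robust fit, other terms, and each of the 31 rats left out, with a lowest and highest count of 0 and 0), and 0 by the spline method under each of its alternatives. The spline method without each rat was not run, because its permutation is set for 31 arrays. No paired analysis was possible because each rat gave 1 array and no replicate number links the days. The median range over the 10 genes was 7.08 on the log2 scale, and 6.50 to 7.08 with 1 rat left out. The range of Acta1 was 6.31 without the rat of 10 h, and 5.55 between the 10th and 90th percentiles. The median slope on Acta1 was 0.87, and 0.84 to 0.99 with 1 rat left out (0.99 without 10 h), 0.54 with an offset of 32 before log2, which lowers the weight of dim values, and 0.24 over every probe set of a member, where the Myh1 probe sets count 5 times. The fast minus slow difference spanned 4.29 over the rats, and 4.15 to 4.29 with 1 rat left out, 5.68 without Mybpc1 and, in a setting chosen after seeing the data, 5.73 without Myh1. Myh7 and Tnni1 lie near the floor in most rats, and with the offset their ranges were 1.33 and 1.62, against 3.06 and 3.24 without it. The floor touches fast genes too: with the offset the range was 4.65 for Myh2, 7.49 for Myh4 and 6.55 for Actn3, against 7.36, 9.47 and 8.49 without it.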
